A study of Mus musculus with 2 samples.

Results

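The genes described here encode the machinery that brings proteins into mitochondria. They were taken by gene symbol: the numbered Timm and Tomm genes and Timmdc1, together with Pam16, Grpel1, Grpel2, Samm50, Mtx1, Mtx2, Mtx3, Pmpca, Pmpcb, Chchd4, Gfer and Oxa1l, each with at least 1 annotated protein-coding transcript. This gave 38 of the 55536 annotated genes in the deposited tables, and 1 further symbol match, the antisense gene Tomm6os, was left out because it has no protein-coding transcript. The samples were hearts of male B6CASTF1/J mice, the F1 hybrid of C57BL/6J and CAST/EiJ, at 14 days of age, with no treatment named. Total RNA from 300 ng of starting material was sequenced in 2 stranded libraries that the labels number as biological replicates 1 and 2. Both libraries carry the same donor label and a description that speaks of 3 males, so whether several animals were pooled is not stated. They form 1 group, and the report therefore describes levels, transcript usage and the spread between the libraries and holds no comparison of conditions.

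Most mitochondrial proteins are made in the cytosol and carry targeting signals that receptors on the outer membrane read. The TOM complex passes them through the outer membrane. From there the SAM complex inserts barrel-shaped proteins into the outer membrane, small TIM chaperones and the TIM22 complex deliver carrier proteins to the inner membrane, and the TIM23 complex with its PAM motor draws proteins with a presequence into the matrix, where a peptidase cuts the presequence off. The heart is rich in mitochondria, and cardiomyocytes rely on them for contraction.

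The sequence feature that defines 1 branch of the family was read from the annotated coding sequences. All 7 small TIM genes encode a twin CX3C arrangement, meaning 2 pairs of cysteines with 3 residues inside each pair, which hold the folded chaperone together through disulfide bonds. The stretches below, 5′ to 3′, run from the first to the second cysteine codon of each pair, with the cysteine codons in capitals; they are shown because they are what Timm8b, Timm13, Timm9, Timm10, Timm10b, Timm8a1 and Timm8a2 share.
Timm8b pair 1: TGTtgggataagTGT
Timm8b pair 2: TGCctctctagcTGT
Timm13 pair 1: TGTttccggaagTGC
Timm13 pair 2: TGCatcgccatgTGC
Timm10 pair 1: TGCcaccggaagTGC
Timm10 pair 2: TGTctggaccgaTGT
Timm10b pair 1: TGTttccagcgcTGT
Timm10b pair 2: TGCctgcacagcTGT
Timm9 pair 1: TGCtttttggacTGT
Timm9 pair 2: TGTtcagaacatTGC
Timm8a1 pair 1: TGCtgggagaagTGC
Timm8a1 pair 2: TGTtttgtgaacTGC
Timm8a2 pair 1: TGCtgggagaagTGC
Timm8a2 pair 2: TGCttggtgaacTGC
The first pair is spelled with the same bases in Timm8a1 and its paralog Timm8a2. Between the pairs lie 14 residues in Timm8b, Timm13, Timm8a1 and Timm8a2, 15 in Timm9 and Timm10b, and 16 in Timm10. For the small TIM genes the complete coding transcript with the most CX3C spacings was read. For the other 31 genes only the longest complete coding sequence was read. None of these 31 held 2 or more CX3C spacings, Chchd4 and Gfer of the disulfide relay included. Their other transcripts were not searched, so the 2 groups were not read alike.

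The second sequence result concerns copies elsewhere in the genome. Timm23, the channel-forming subunit of the TIM23 complex (chr14:32180162-32201898, minus strand), has a 1-exon copy, Gm10273 (chr10:59395632-59396757, plus strand), annotated as protein-coding. All 627 coding bases of Timm23 were found in the Gm10273 transcript with 0 mismatches. The first 60 coding bases, shown because reads with this reference sequence cannot tell the genes apart, are the same in both. Only reference transcripts were compared, not the CAST/EiJ alleles.
Timm23 and Gm10273, coding bases 1 to 60: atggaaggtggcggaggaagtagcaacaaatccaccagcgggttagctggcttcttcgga
The pseudogene Gm14494 (chr2:153826171-153826605, plus strand) matches the 435 coding bases of the receptor gene Tomm20 with 2 mismatches. The stretch that holds the first of them is given with the differing base in capitals.
Tomm20, coding bases 4 to 63: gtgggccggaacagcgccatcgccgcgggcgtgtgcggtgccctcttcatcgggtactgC
Gm14494, same bases: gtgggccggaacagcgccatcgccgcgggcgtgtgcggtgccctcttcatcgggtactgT
The coding sequences of Timm8a1 (291 bases) and Pam16 (375 bases) were likewise found without a mismatch in Gm9797 and Gm9803. Coordinates here and below are those of mm10 with the M21 annotation, which the deposited notes name.

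Levels were read as TPM, a length-normalised abundance that sums to the same total in each library, so that genes can be set side by side within a library. Unless another is named, values come from the deposited tables whose columns are those of RSEM (RSEM-style). A second deposited quantification has the columns of kallisto (kallisto-style). Detection here means at least 1 TPM in each of the libraries. Of the 38 import genes 36 were detected, against 51.8% of all 22028 protein-coding genes. The median of the detected members was 37.5 TPM in replicate 1 and 38.4 TPM in replicate 2 (37.9 ± 0.622, SD, n = 2), beside 9.72 and 9.96 TPM for the 11421 detected protein-coding genes. Of the 36 detected members 31 lay above the median of detected genes. Together the 38 genes made up 0.360% and 0.366% of all TPM assigned to protein-coding genes of the nucleus, and the highest detected member stood 47.6-fold above the lowest.

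**Figure D1:**
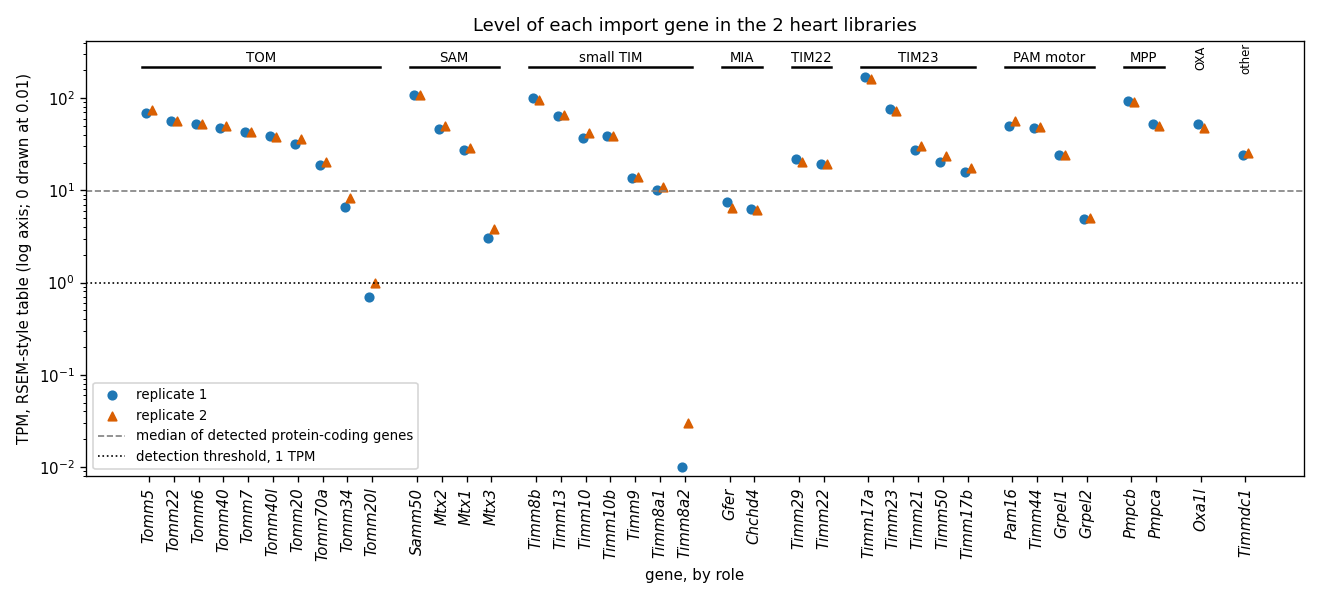
TPM of each of the 38 import genes (log axis) in replicate 1 (circles) and replicate 2 (triangles), grouped by role. The dashed line is the median of detected protein-coding genes, the dotted line the detection threshold of 1 TPM; Tomm20l and Timm8a2 are the members not detected in both libraries, and a value of 0 is drawn at 0.01.

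In the TOM complex, 9 of 10 genes were detected. Tomm40, the barrel that forms the pore, was read at 47.4 and 49.3 TPM in replicates 1 and 2. Its central receptor and docking subunit Tomm22 stood at 55.9 and 56.8 TPM. The receptor Tomm20, which binds presequences, stood at 31.7 and 35.7 TPM, and Tomm70a, the receptor for carrier proteins, at 18.6 and 20.5 TPM. Within each library the receptors thus kept the order Tomm22, Tomm20, Tomm70a, with Tomm20 0.78 ± 0.02 above Tomm70a on the log2 scale (SD, n = 2). The small subunits that stabilise the complex were Tomm5 at 68.9 and 74.9 TPM, Tomm6 at 52.9 and 52.9 TPM and Tomm7 at 43.1 and 42.9 TPM. Tomm5 was the highest TOM gene in each library. Tomm40l, a paralog of Tomm40 with 59.7% protein identity over 308 aligned residues, stood at 38.6 and 38.1 TPM. Tomm34, a cytosolic factor despite its name, was far lower at 6.63 and 8.16 TPM. Tomm20l, the paralog of Tomm20, had 10 and 17 counts (0.70 and 1.00 TPM).

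The SAM genes spread more widely. Samm50 (chr15:84192241-84217267, plus strand), the barrel at the core of the complex, was the second highest member at 108.7 TPM in each library. The metaxins bind Samm50 from the cytosolic side. Mtx2 was read at 46.3 and 49.8 TPM, Mtx1 at 27.4 and 28.6 TPM, and Mtx3 at 3.06 and 3.81 TPM, the lowest level of any detected member in both libraries. Mtx1 and Mtx3 share 49.3% of aligned residues.

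Small TIM proteins carry hydrophobic cargo across the space between the membranes, as complexes of Timm9 with Timm10 and of Timm8 with Timm13. Timm8b was the highest at 99.4 and 95.2 TPM. Timm13 followed at 63.6 and 66.1 TPM, Timm10 at 36.6 and 41.5 TPM, and Timm10b, which tethers the chaperone to TIM22, at 38.4 and 38.6 TPM. Timm10 and Timm10b did not differ beyond the spread of the libraries and changed order between them. Timm9 lay lower at 13.6 and 13.9 TPM, so that the log2 ratio of Timm9 to its partner Timm10 was -1.50 ± 0.11. Timm8a1, the mouse counterpart of the human deafness-dystonia gene, was read at 10.04 and 10.9 TPM. Timm8b exceeded Timm8a1 by 3.21 ± 0.13 on the log2 scale. Timm8a2, which shares 76.3% of residues with Timm8a1, had 0 counts in replicate 1 and 1 count in replicate 2. Timm8a2 is thus listed almost without reads, while its paralog was detected in both libraries.

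Chchd4 and Gfer, the receptor and the oxidase of the relay that places the disulfides in these chaperones, were among the lowest detected members. Chchd4 stood at 6.24 and 6.19 TPM and Gfer at 7.39 and 6.50 TPM, both below the median of detected genes in each library. In the TIM22 complex, which inserts carriers, the channel gene Timm22 stood at 19.1 and 19.2 TPM and its partner Timm29 at 22 and 20.2 TPM.

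The TIM23 branch held the highest member. Timm17a (chr1:135295213-135313778, minus strand), which pairs with Timm23 in the translocase, was read at 167.5 and 159.7 TPM. Timm23 itself stood at 76.4 and 72.8 TPM, and Timm50, its presequence receptor, at 20.2 and 23.5 TPM. Timm21, which links the complex to TOM and the respiratory chain, stood at 27.5 and 30.2 TPM. Timm17b, which shares 74.9% of residues with Timm17a, stood at 15.6 and 17.6 TPM. The gene-level log2 ratio of Timm17a to Timm17b was 3.29 ± 0.17, a 9.81-fold difference by geometric mean.

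Of the motor genes, Pam16, a regulator of the motor's J-protein, was read at 50.03 and 56.1 TPM and the tether Timm44 at 46.9 and 48.1 TPM. The nucleotide exchange factor Grpel1 stood at 24.1 and 23.9 TPM, 2.26 ± 0.03 on the log2 scale above its paralog Grpel2 (4.87 and 4.98 TPM). The presequence peptidase has an active subunit, Pmpcb, and a subunit that recognises substrates, Pmpca. Pmpcb was read at 94.0 and 91.4 TPM and Pmpca at 52.8 and 49.7 TPM, a log2 ratio of Pmpca to Pmpcb of -0.85 ± 0.03 although they act as a pair. Oxa1l, the insertase for proteins coming from the matrix, stood at 52.9 and 47.4 TPM. Timmdc1, an assembly factor of respiratory complex I whose symbol puts it among the members, stood at 24.3 and 25.5 TPM. With the members ranked by their mean TPM, 14 of the 37 neighbouring pairs in that order overlapped between the libraries and are not separated.

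The gene-level order depended on which annotated transcript models were counted and on how the tables divided TPM among them. A gene's TPM sums all annotated transcripts, and some carry no complete coding sequence: retained-intron models keep an intron, and nonsense-mediated decay models carry an early stop. Over the members, 75.3% ± 0.329 of TPM (SD, n = 2) lay in transcripts annotated as protein-coding, beside 89.0% ± 0.322 over all detected protein-coding genes. Retained-intron models held 21.1% ± 0.557 of member TPM, against 4.93% ± 0.244 over all detected genes. By counts, which are not divided by length, retained-intron models held 11.5% ± 0.141 of the members' counts against 2.41% ± 0.155 over all detected genes, and protein-coding models 86.4% ± 0.130 against 94.6% ± 0.197. The median member was not low, at 93.2% protein-coding against 92.4% for the median detected gene. Of the retained-intron TPM of the members, 69.8% lay in 4 genes, Timm17a, Samm50, Mtx2 and Mtx1.

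**Figure D2:**
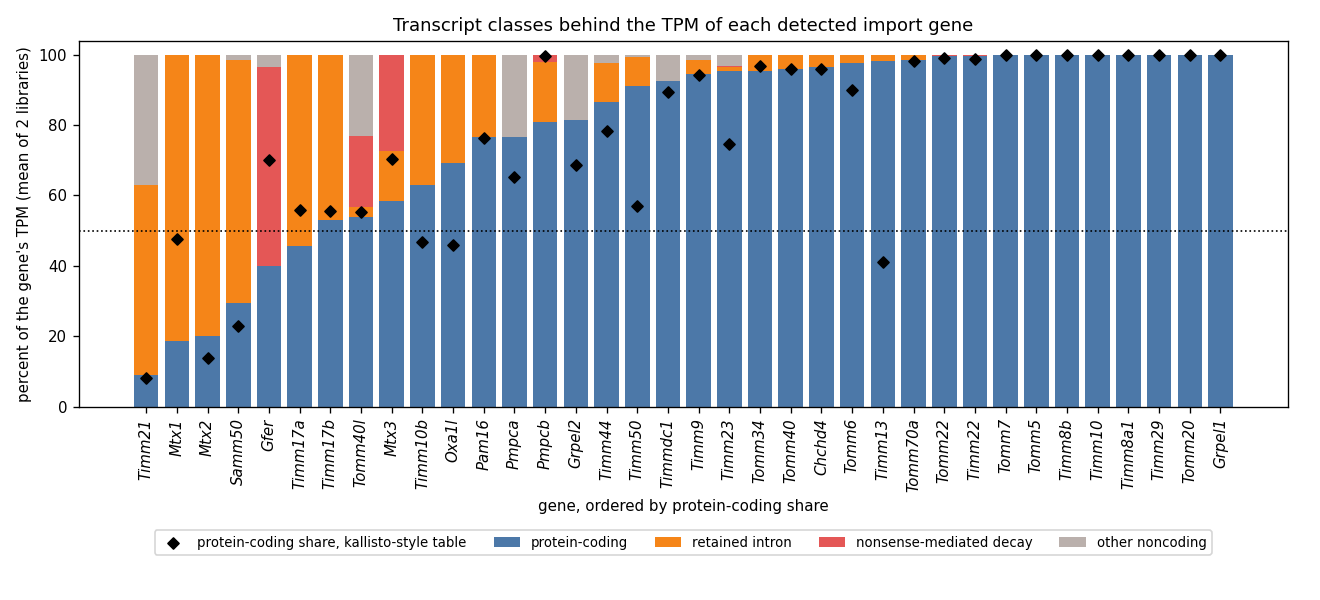
Share of each detected member's TPM in protein-coding, retained-intron, nonsense-mediated decay and other noncoding transcripts (stacked bars, mean of the 2 libraries, RSEM-style table). Diamonds give the protein-coding share in the kallisto-style table; Timm21, Mtx1, Mtx2 and Samm50 lie under the dotted line at 50% in both tables.

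In 6 of 36 detected members less than 50% of TPM lay in protein-coding transcripts (background 7.71% of detected protein-coding genes). These were Timm21 at 8.91% ± 0.469, Mtx1 at 18.6% ± 1.24, Mtx2 at 20.1% ± 1.81, Samm50 at 29.4% ± 0.477, Gfer at 40.0% ± 17.6 and Timm17a at 45.5% ± 1.37 (SD, n = 2). The share was close in both libraries for all of these except Gfer, which was read at 52.4% in replicate 1 and 27.5% in replicate 2 from 221 and 271 counts. By counts 4 of 36 lay under 50% (background 3.91%): Timm21, Mtx1, Gfer and Mtx2, the last at 49.0%. By TPM, leaving out replicate 1 gave 7 such members and leaving out replicate 2 gave 5. The kallisto-style table put 7 of 36 members under 50% (background 9.91%). The 4 members under 50% in both tables were Timm21, Mtx1, Mtx2 and Samm50. Of the other members under 50% in the kallisto-style table, Timm13 stood at 41.2%, Oxa1l at 45.9% and Timm10b at 46.6%, against 98.2%, 69.2% and 62.9% in the RSEM-style table. The 2 tables thus disagreed on which members were affected.

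The level of Timm17a rested on short models. Its 7280-base transcript with a complete coding sequence, Timm17a-201, was read at 5.67 and 5.24 TPM. The retained-intron model Timm17a-204, 565 bases long, stood at 92.9 and 85.5 TPM, and Timm17a-203, a 468-base coding model without a complete coding sequence, at 68.8 and 68.4 TPM. By counts the picture is less uneven: Timm17a-201 held 1245 and 1379 counts, Timm17a-204 held 1325 and 1460, and Timm17a-203 held 776 and 925. The complete transcript thus carried 36.9% of the gene's counts and 3.33% of its TPM. Of the 31-base words in Timm17a-204, 6.17% occur in no coding transcript of the gene.

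Samm50 followed the same lines. Its 1170-base retained-intron model Samm50-205 was read at 67.8 and 67.0 TPM, above the 4629-base coding transcript Samm50-201 at 32.4 and 31.6 TPM. By counts the coding transcript led, with 4488 and 5254 against 2222 and 2632. The kallisto-style table gave Samm50-205 only 14.96 and 18.4 TPM, and placed most of the gene's TPM in another retained-intron model of 731 bases, Samm50-204. In Mtx2 the retained-intron models Mtx2-202 and Mtx2-203 stood at 18.2 and 19.9 and at 19.4 and 19.2 TPM, and the coding Mtx2-201 at 8.69 and 10.6 TPM. By counts Mtx2-201 led with 758 and 1109, against 350 and 460 for Mtx2-202 and 507.5 and 602 for Mtx2-203. The retained-intron models together still held 51.0% of the gene's counts. Of the words of Mtx2-202 and Mtx2-203, 46.0% and 43.5% lay outside every coding transcript of Mtx2. In Mtx1 the retained-intron models Mtx1-217 and Mtx1-211 led with 11.5 and 11.1 and with 8.59 and 9.52 TPM. Only 1.08% and 1.28% of the words of these Mtx1 models are their own, and the kallisto-style table listed Mtx1-217 at essentially none. Timm21 was led by a processed transcript, Timm21-206, at 11.6 and 9.52 TPM, with the coding Timm21-201 at 2.36 and 2.79 TPM. Of the words of Timm21-206, only 4.59% lay outside every coding transcript of the gene. The protein-coding share of Timm21 was 26.6% by counts, against 8.91% by TPM. Gfer was led by a nonsense-mediated decay model, Gfer-202, at 3.51 and 3.15 TPM, with 2.56% of its words outside the coding transcripts. The kallisto-style table gave Gfer-202 0.07 and 0 TPM.

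Counted over the rest, 20 of 36 detected members fell below 90% protein-coding in at least 1 table and 16 stayed at 90% or more in both. The share of all detected genes below 90% was not counted, so the 20 do not set the members apart. In the RSEM-style table the median detected gene stood at 92.4%. Among those below 90% not yet given, the RSEM-style shares were 53.0% for Timm17b, 53.8% for Tomm40l, 58.4% for Mtx3, 76.5% for Pam16, 76.6% for Pmpca, 80.8% for Pmpcb, 81.3% for Grpel2 and 86.7% for Timm44. By RSEM-style counts Mtx3, Pmpca, Pmpcb, Grpel2 and Timm44 stood at 91.5%, 95.6%, 96.1%, 97.7% and 92.6%. Timm17b, Tomm40l and Pam16 stayed lower by counts, at 59.9%, 67.2% and 83.7%. Timm23, Timm50 and Timmdc1 stayed above 90% in the RSEM-style table (95.3%, 91.2% and 92.5%) and fell below it in the kallisto-style table (74.7%, 57.0% and 89.5%). The remaining members, among them Timm8b, Timm10, Tomm20, Tomm5, Tomm7, Timm29 and Grpel1, rested on coding transcripts in both tables.

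Counting only transcripts with a complete coding sequence gave another order. Under 50% of TPM lay in such transcripts in 8 of 36 members (background 13.8%) in the RSEM-style table and in 10 of 36 (background 17.5%) in the kallisto-style table, 7 of them shared. Timm8b then led at 99.4 and 95.2 TPM, followed by Pmpcb at 74.9 and 74.4 TPM and Tomm5 at 68.9 and 74.9 TPM. Timm17a moved from place 1 to place 30, Samm50 from 2 to 16, Mtx2 from 14 to 27 and Mtx1 from 22 to 36. The median over the 38 members fell from 35.5 to 22.2 TPM under this count, which was chosen after the data had been seen.

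**Figure D3:**
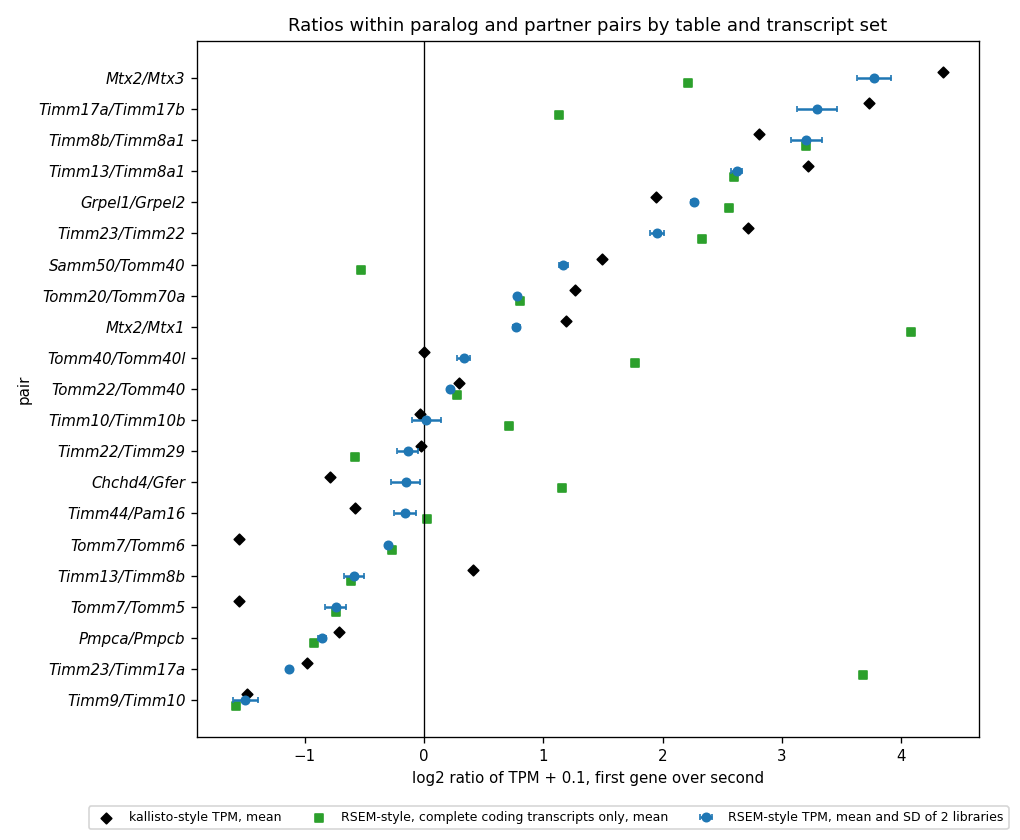
Log2 ratio of TPM + 0.1 within 21 paralog and partner pairs of detected members. Circles are RSEM-style TPM with the SD of the 2 libraries, diamonds kallisto-style TPM, squares RSEM-style TPM of complete coding transcripts. Timm23/Timm17a, Samm50/Tomm40 and Chchd4/Gfer change sign between circles and squares. The mean of Timm44/Pam16 does too, but its libraries differ in sign over complete coding transcripts.

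Of 21 pairs of detected members 20 kept their sign in both libraries by RSEM-style TPM, the exception being Timm10 and Timm10b. Timm23 stood below Timm17a at the gene level (log2 ratio -1.13 ± 0.002), but above it by 3.68 over complete coding transcripts. Samm50 stood above Tomm40 by 1.17 ± 0.04 at the gene level and below it over complete coding transcripts (log2 ratio -0.53). Over complete coding transcripts Chchd4/Gfer moved from -0.15 ± 0.12 to 1.15, with 0.63 and 1.68 in replicates 1 and 2. Timm44/Pam16 moved from -0.16 ± 0.09 to 0.03, with -0.06 and 0.12 in replicates 1 and 2, so its sign there is not settled. The lead of Timm17a over Timm17b kept its sign over complete coding transcripts and shrank from 3.29 to 1.13. Tomm40 stood above Tomm40l by 0.33 ± 0.05 in the RSEM-style table and by 1.77 over complete coding transcripts, and level with it in the kallisto-style table (-0.002). The ratio of Timm13 to Timm8b was -0.58 ± 0.08 by RSEM-style and 0.41 by kallisto-style TPM. The pairs that moved little were Timm9/Timm10 (-1.50, -1.49 and -1.58 by the RSEM-style, kallisto-style and complete-coding measures), Pmpca/Pmpcb (-0.85, -0.71 and -0.93) and Tomm22/Tomm40 (0.22, 0.29 and 0.28).

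Across the tables as a whole, kallisto-style TPM was 1.20-fold higher in the median detected gene, and 34 of 36 members read higher there in both libraries. The share of all detected genes that read higher was not counted, so the 34 do not set the members apart. After the shift of the median gene was removed, 0 of 36 members differed 2-fold or more in both libraries (background 1.36%) and 4 of 36 differed 1.5-fold or more (background 4.92%). Timm17a (log2 0.67 and 0.68), Timm23 (0.61 and 1.03) and Timm13 (0.95 and 0.86) read higher in the kallisto-style table. Tomm7 read lower, by -0.97 and -0.81, at 26.2 and 29.6 TPM against 43.1 and 42.9 TPM, with 100% of its TPM in coding transcripts in both tables and 1 and 0 counts for its closest listed copy, Gm45113.

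For Timm23 the copy Gm10273 described above entered the reading. The RSEM-style table gave Gm10273 51.0 and 57.9 TPM (1604 and 2178 counts), so that Timm23 took 59.96% and 55.7% of their sum. The kallisto-style table gave Gm10273 31.3 TPM in replicate 1 and 2.27 TPM in replicate 2, and Timm23 took 81.7% and 98.7%. The sum of both genes moved less between the libraries than Timm23 alone: 127.5 and 130.6 TPM in the RSEM-style table and 170.8 and 181.6 TPM in the kallisto-style table, where Timm23 alone stood at 139.5 and 179.3 TPM. Gm10273 shares 96.7% of its 31-base words with Timm23, so how much of the sum each gene contributes cannot be told from these tables.

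The division between Tomm20 and Gm14494 was similar in both tables. Gm14494 was listed at 28.8 and 26.9 TPM and Tomm20 took 52.4% and 57.0% of the sum, with 55.2% and 57.7% in the kallisto-style table. By RSEM-style counts, which are not divided by length, Gm14494 held 296 and 331 and Tomm20 1428 and 1771. For Timm8a1, Gm9797 was listed at 10.3 and 9.95 TPM in the RSEM-style table, close to Timm8a1 in TPM. In the kallisto-style table Gm9797 stood at 0 and 2.21 TPM. By RSEM-style counts Gm9797 held only 61.7 and 80.8, against 406 and 528 for Timm8a1. The level of Timm8a1 is therefore uncertain by the amount given to Gm9797. For Pam16 the copy Gm9803 took 5.46 and 3.64 TPM, under 10% of the sum in each library. Some members also overlap other genes. Tomm40l shares 64.3% of its exon bases with Nr1i3 on the opposite strand, where Nr1i3 was listed at 0.02 TPM in both libraries. Tomm6 shares 76.0% of its exon bases with Gm21981 on its own strand, listed at 0.34 and 0.32 TPM. Pmpca shares 20.4% with Inpp5e (6.33 and 6.51 TPM) and Pam16 18.7% with Glis2 (9.73 and 9.44 TPM), both on the opposite strand. Whether the counting used the strand is not given in the sources used here.

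**Figure D4:**
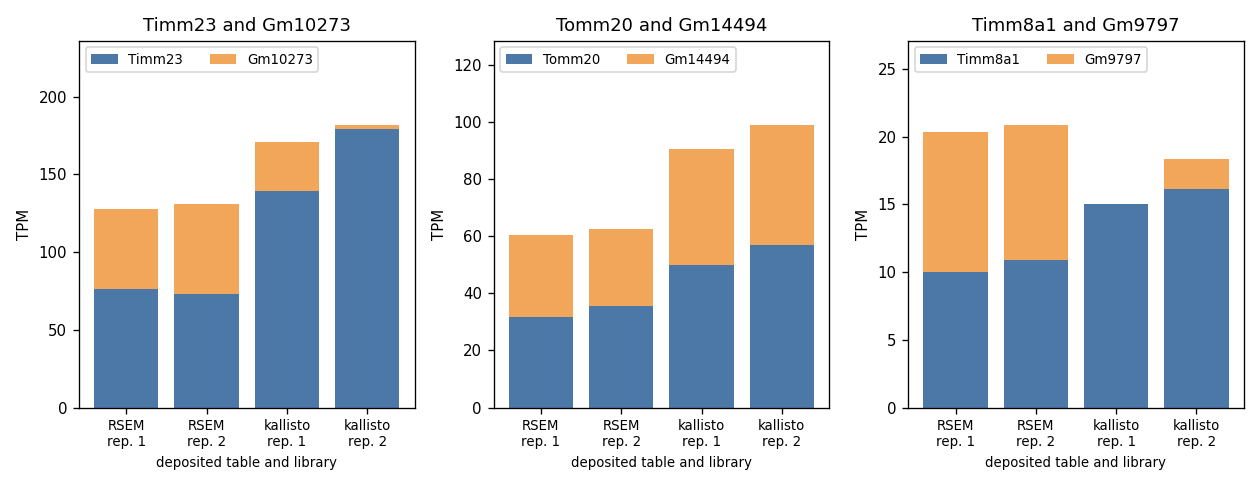
TPM of Timm23, Tomm20 and Timm8a1 (blue) stacked with the copy that holds their coding sequence (orange), for each deposited table and library. The Timm23 and Gm10273 sum stays between 127.5 and 130.6 TPM in the RSEM-style table while the division between them differs by table and, in the kallisto-style table, by library.

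Between the libraries the import genes were close. Totals of 39334380 and 46391250 expected counts gave each detected member at least 221 counts in each library. A 2-sided exact binomial test on counts scaled by TMM (trimmed mean of M values), which compares these 2 libraries and covers counting error only, called 0 of 37 tested members at an adjusted p of 0.05 and a 2-fold ratio (background 3.24% of 16611 genes). With a floor of 100 counts per library the test called 0 of 36 members and 0.438% of 11416 genes at 2-fold. The 0 therefore does not set the members apart from other well-counted genes. At any ratio, without that floor, the test called 8 of 37 (background 22.1%). The 4 higher in replicate 2 (background 10.4%) were Mtx3 by 0.31, Tomm34 by 0.29, Mtx2 by 0.14 and Tomm70a by 0.12 on the log2 scale. The 4 lower in replicate 2 (background 11.6%) were Timm29 by -0.14, Oxa1l by -0.12, Timm17a by -0.11 and Pmpca by -0.09. The smallest adjusted p among members in this exact test was 0.0039, for Tomm70a. The median absolute log2 ratio was 0.067 for members and 0.10 for detected protein-coding genes. The detected members also had a higher median level, 37.9 against 9.84 TPM, and these sets were not matched for level. With scaling by total counts 7 members passed, all 7 higher in replicate 2, and 4 of them were among the 8, so the count of lower members depends on the scaling. Under scaling by total counts the median detected protein-coding gene itself stood at 0.037 on the log2 scale, against -0.0098 by TMM. The share of all genes called at any ratio under scaling by total counts was not counted. With edgeR's exact test and an assumed biological coefficient of variation of 0.1 0 of 37 members passed at any ratio, beside 2.85% of all genes tested, and 0 of 37 had an unadjusted p under 0.05, beside 7.25%.

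**Figure D5:**
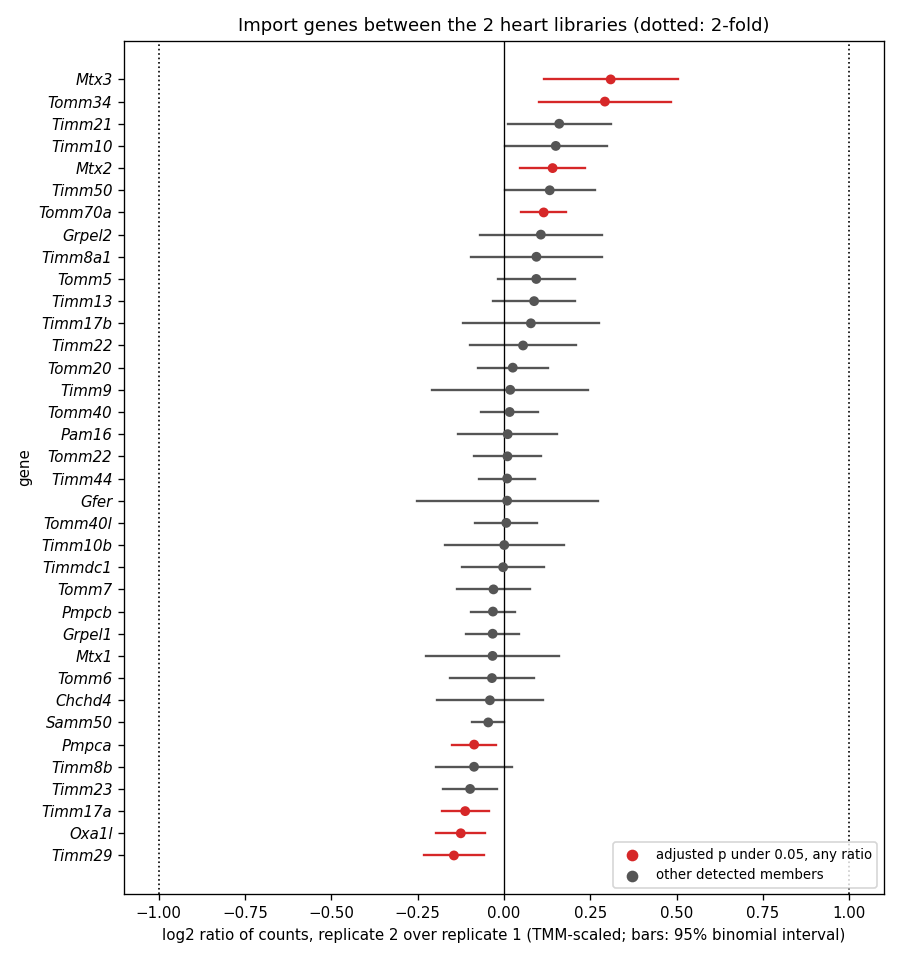
Log2 ratio of TMM-scaled counts, replicate 2 over replicate 1, for the 36 detected members with 95% exact binomial intervals. Red marks the 8 members with an adjusted p under 0.05 at any ratio; every point lies well inside the dotted 2-fold lines, the farthest being Mtx3 at 0.31.

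Markers of some cell types differed between the libraries. All 6 cardiomyocyte markers were detected, and none of them passed at 2-fold. All 4 atrial markers were lower in replicate 2, with Nppa at 841 and 242 TPM and Myl7 at 385 and 125 TPM. Of 10 T cell and thymus markers 9 were called higher in replicate 2 at 2-fold. The other, Ptcra, had 0 and 14 counts and was not tested. The sum of all 10 was 61.8 TPM in replicate 2 against 1.65 TPM in replicate 1. Of 4 brown adipocyte markers 1 was called at 2-fold, Ucp1 with 459 and 18 counts, while Cidea had 801 and 842, Dio2 81 and 66 and Elovl3 1 and 0 counts. None of the erythroid, endothelial, fibroblast or macrophage markers passed at 2-fold, and 0 of 3 liver markers were detected. The part of these differences in the small ratios of the import genes was not tested. In bulk RNA, fewer cells of a type and less RNA per cell cannot be told apart.

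Other genes of the import pathway gave a similar level. Of 39 listed symbols 38 were found and all 38 were detected, with medians of 42.8 and 42.9 TPM. Between the libraries 0 were called at 2-fold, beside 3.24% of 16611 genes tested. With a floor of 100 counts per library the background was 0.438% of 11416 genes, so the 0 does not set these 38 apart. The highest were Chchd10 at 545.9 and 529.1 TPM, Chchd2 at 402.8 and 400.0 TPM, Minos1 at 305.9 and 324.2 TPM and Immt at 255.1 and 250.9 TPM. The first pair are CHCH-domain proteins of the intermembrane space, and the second pair belong to MICOS, which shapes the cristae and contacts SAM. The motor chaperone Hspa9, with which Pam16, Timm44 and Grpel1 work, stood at 204.2 and 200.5 TPM, above every member. In 6 of these 38 genes less than 50% of TPM was in coding transcripts (background 7.71%), and in 7 of 38 in the kallisto-style table (background 9.91%), 4 of them shared. Minos1 stood at 3.22% and 0.720% in the RSEM-style and kallisto-style tables, and Chchd10 at 40.6% and 55.4%. Named after their values were seen, Dnajc15 and Dnajc19, the J-proteins of the motor, stood at 101.1 and 103.6 TPM and at 53.65 and 54.1 TPM. Dnajc15 had 2.42% and 0.846% of TPM in coding transcripts in the RSEM-style and kallisto-style tables, and Dnajc19 45.7% and 100%.

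The RefSeq promoters (250 bases before to 50 after the start, GRCm38.p6) could be matched for 34 of the 38 members, without Tomm7, Tomm40l, Timm21 and Grpel2 here. They were searched on both strands; of the motifs below, the ETS-type and YY1-type matches can share the letters AAG. The ETS-type motif CCGGAAG was in 16 of 34 member promoters (47.1%), beside 9.93% of 27025 genes and 20.7% of 9083 detected protein-coding genes with a promoter entry. The YY1-type motif AAGATGGCG was in 4 (11.8%, against 3.75% of detected genes): Oxa1l, Mtx1, Timm50 and Mtx3. The NRF1-type motif GCGCATGC, of a factor known for mitochondrial genes, was in 2 (5.88%, against 6.18%): Timm13 and Grpel1. GGGCGG, bound by SP factors, was in 20 (58.8%, against 70.5%), TATAAA in 2 (5.88%, against 8.90%) and the ERR-type TCAAGGTCA in 1, Timm8b (2.94%, against 0.308%). These matches describe letters in the windows; no binding was measured. The 250 bases before the start are shown for Timm8b, the highest small TIM gene, and Grpel1, which holds both an ETS-type and an NRF1-type match; those matches are in capitals, on either strand.
Timm8b, chr9:50603651-50603900, plus strand: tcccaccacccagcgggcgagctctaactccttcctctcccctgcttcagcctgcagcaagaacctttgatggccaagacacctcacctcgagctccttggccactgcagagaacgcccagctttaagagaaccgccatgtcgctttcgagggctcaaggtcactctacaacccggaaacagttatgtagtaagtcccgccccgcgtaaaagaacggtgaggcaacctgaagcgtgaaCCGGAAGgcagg
Grpel1, chr5:36464935-36465184, plus strand: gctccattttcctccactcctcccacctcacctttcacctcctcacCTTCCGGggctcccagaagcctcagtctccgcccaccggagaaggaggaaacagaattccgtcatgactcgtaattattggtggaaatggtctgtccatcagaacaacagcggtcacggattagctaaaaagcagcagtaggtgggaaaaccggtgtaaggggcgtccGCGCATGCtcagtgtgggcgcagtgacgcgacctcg
The levels of these genes, 99.4 and 95.2 TPM for Timm8b and 24.1 and 23.9 TPM for Grpel1, are given above.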

How the data were processed

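Each library has gene and transcript tables with RSEM's column names, and transcript tables with those of kallisto, all deposited by the authors. Per the deposited readme they used mm10 with annotation M21, and no aligner or version is given in the sources used here. The values are, per the file headers, expected counts (estimated counts, not whole), TPM and the percent of each gene's TPM per transcript. The kallisto-style values deposited by the authors were summed per gene here. Depth was 39334380 and 46391250 expected counts. Intervals and p-values of the binomial test cover counting error only and do not measure the spread between libraries. A difference between these libraries may be technical. Identifiers that name no gene (spike-ins and numbered entries) held 0.518% and 0.531% of counts and stayed out of the tests. Expected counts were rounded and scaled by TMM (edgeR 4.0.16, R 4.3.3). They were tested by a 2-sided exact binomial test (scipy 1.17.1) over genes with 10 counts in each library or 20 in all, with Benjamini-Hochberg adjustment. A check on simulated data required only that most planted changes, larger than 2-fold, were called and all had the right sign. It set no limit on false calls. Complete coding sequences were those without an annotated missing start or end. Ratios used a pseudocount of 0.1 TPM. Shared sequence was counted in 31-base words of the M21 transcripts, and proteins were aligned with Biopython 1.88. The rule for named genes takes every member with its level, members passing between libraries or tables, members under 90% coding in either table, and the 4 highest other import genes. The members and lists were chosen with earlier results of these data known. Alternatives covered the table, the transcripts counted, the thresholds, the scaling (total, DESeq2 1.42.0 and spike-in) and each replicate left out.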

Additional observations from a re-analysis of the deposited data

How the results depend on the processing

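The median of the 38 members was 35.5 TPM; it was 45.8 TPM in the kallisto-style table, 23.4 TPM over protein-coding transcripts, 22.2 TPM over complete coding transcripts (an alternative added after seeing the data) and 84.1 when rescaled over nuclear protein-coding genes, and 34.2 to 36.9 TPM with either replicate left out. The count of detected members ran from 34 to 37 over all alternatives. No member was called at 2-fold between the libraries under any alternative (background 0.438% to 3.46%), and without a minimum ratio 8 were (background 22.1%). The number differing between the tables rose from 0 to 4 with a threshold of 1.5-fold. Sign changes of pair ratios, as log2, were: in the kallisto-style table Tomm40/Tomm40l to -0.0021 and Timm13/Timm8b to 0.41, and Timm10/Timm10b, whose libraries already differ in sign, from 0.02 to -0.03; over protein-coding transcripts Timm44/Pam16 to 0.029, Chchd4/Gfer to 1.15 and Samm50/Tomm40 to -0.53; over complete coding transcripts Timm23/Timm17a to 3.68, Timm44/Pam16 to 0.029, Chchd4/Gfer to 1.15 and Samm50/Tomm40 to -0.53; and by counts not divided by length Pmpca/Pmpcb to 0.048, Timm44/Pam16 to 1.65, Chchd4/Gfer to 1.495, Tomm20/Tomm70a to -1.26, Tomm22/Tomm40 to -0.43, Tomm7/Tomm5 to 0.18 and Tomm7/Tomm6 to 0.38. The last set follows from the lengths of the transcripts. The cause of the others was not tested. Over complete coding transcripts Timm44/Pam16 stood at -0.06 and 0.12 in replicates 1 and 2, so its sign there is not settled. With a pseudocount of 1 TPM no pair changed sign, and with a replicate left out only Timm10/Timm10b did, to -0.07 without replicate 2. By counts rather than TPM, 4 rather than 6 members had under 50% in protein-coding transcripts, and the retained-intron share of the members was 11.5% rather than 21.1% (added after seeing the data). No paired analysis was possible because the samples form 1 group. Depth limits Tomm20l and Timm8a2, whose counts are too few to set a level.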
